A study of Drosophila melanogaster with 4 samples.

Results

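The homeobox genes empty spiracles (ems) and E5 lie side by side on the right arm of the third chromosome (3R) of Drosophila melanogaster, inside a domain of trimethylated histone H3 (H3K27me3) that was mapped in adult head nuclei. The locus was taken as all enriched regions that touch 9630000 to 9820000 on 3R, in FlyBase release 5 coordinates, a window of 190 kb. It was chosen from the same region lists because it holds the widest stretch unbroken in both ChIP replicates. The number, width and score of its regions are therefore descriptions, and no test was run on them. The window held 9 of the 25702 regions of the 3 deposited lists. These were 2 of 4865 regions in replicate 1, 4 of 10330 in replicate 2 and 3 of 10507 in the list of the whole series.

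The study consisted of 2 H3K27me3 ChIP-seq libraries, made with lot 3 of an Abcam antibody, and 2 input libraries, each the control for the ChIP library of the same number. All 4 came from nuclei of heads of wild-type Oregon-R flies, labelled as mixed adults and raised in cages whose populations turn over in cycles of 22 days. Heads were pooled by sieving, so each library averages over neurons, glia, photoreceptors, fat body, muscle and cuticle cells, and a region seen in a library need not be marked in every cell type. The labels do not state that the replicates came from separate fly collections, and their spread may be technical. Each ChIP library has a list of called regions with a score per region. The inputs enter only through that calling. Read numbers are unknown from such lists, and no counting error can be attached to any value. A base outside a region is a base at which no enrichment was called, not one shown to lack the mark.

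H3K27me3 is deposited by the Polycomb repressive complex PRC2 and is read by PRC1, which compacts chromatin over silenced developmental genes. In flies the complexes are brought in by short Polycomb response elements, from which the mark spreads over long distances. The gene ems encodes a homeodomain transcription factor and acts as a head gap gene: in the embryo it specifies head segments and part of the brain. E5 encodes a related homeodomain protein, and the vertebrate relatives of the pair are the Emx genes of the forebrain. Genes for segment identity of this kind are textbook Polycomb targets in fly tissues that no longer use them.

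As a check of the tissue label, 12 genes on 3R of photoreceptors and neurons were examined for the mark, and the libraries differed. These genes were taken as expressed in heads, and so as free of a mark of silenced genes. In replicate 1 none of the 12 had at least 50% of its body inside regions, while in replicate 2 this held for 7. Of all 4206 genes placed on 3R, 18.3% passed this limit in replicate 1 and 29.6% in replicate 2. In the whole-series list it was 6 of the 12, beside 1360 of the 4206. At this limit the check was thus met in replicate 1, but not in replicate 2 (58.3% of the 12) or the whole series. Among the rhodopsin genes, ninaE was covered to 0% in replicate 1 and 70.0% in replicate 2, Rh3 to 0% and 100%, and Rh6 to 11.8% and 100%. The photoreceptor channel gene trp was covered to 0% in replicate 1 and 100% in replicate 2. The overlapping cholinergic genes ChAT and VAChT, which share sequence, had 23.4% and 46.8% in replicate 1, and 69.1% and 71.6% in replicate 2. The neuronal sex-determination gene fru had 43.2% in replicate 1 and 57.9% in replicate 2. The other 5 genes, chp, Syx1A, Syn, Rim and cpx, had 0% in replicate 1 and at most 16.4% in replicate 2. What sets the libraries apart at these genes was not tested. Regions and covered shares at ems and E5 are given for each replicate, some with a mean over both. Positions of the genes in the domain use sequence covered in both replicates.

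H3K27me3 covered E5 and ems in full in both replicates. In replicate 1 a single region of 119185 bp, at chr3R:9665727-9784911, held both genes with a score of 2.03. In replicate 2 the same sequence was called as a pair of regions. One of 14244 bp, at chr3R:9665675-9679918, had a score of 1.68. The other, of 103975 bp at chr3R:9680999-9784973, had a score of 1.93 and held E5 and ems. Only 1080 bp separated them. The whole-series list gave 1 region of 119301 bp, at chr3R:9665665-9784965, with a score of 1.96. The sequence covered without a break in both replicates was thus 103913 bp long, and its low end was set by the split in replicate 2.

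**Figure D1:**
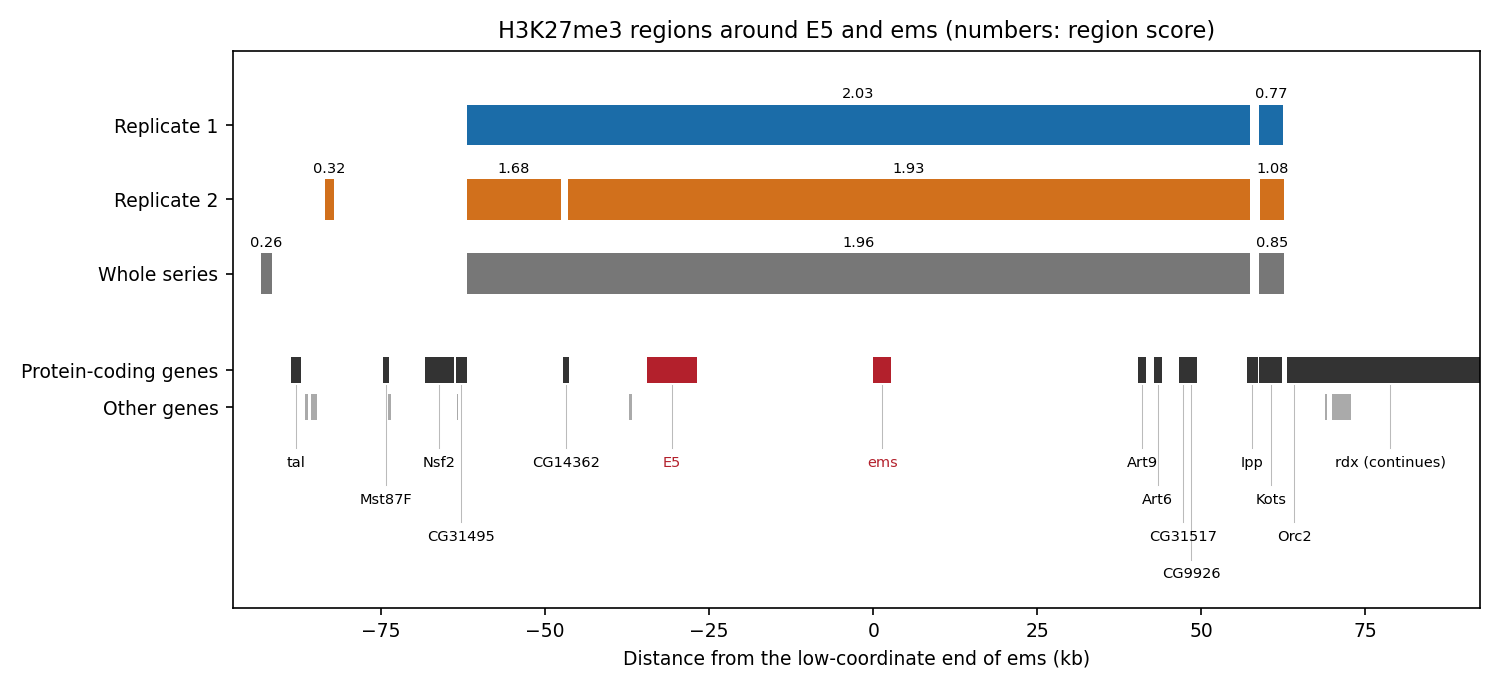
Enriched regions of replicate 1, replicate 2 and the whole series (bars, with the region score above each) and genes (lower bars, E5 and ems in red) in the 190 kb window; the x axis is the distance in kb from the low-coordinate end of ems. The wide block over E5 and ems is unbroken in replicate 1 and the whole series and is split once, by 1080 bp, in replicate 2, and a small block follows it after a gap in all 3 lists.

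A smaller region followed the wide one in every list. It measured 3601 bp in replicate 1, at chr3R:9786387-9789987, with a score of 0.77. In replicate 2 it measured 3682 bp, at chr3R:9786535-9790216, with a score of 1.08, and in the whole series 3759 bp with a score of 0.85. The gap between the wide region and this small one was 1475 bp in replicate 1 and 1561 bp in replicate 2. When regions under 2000 bp apart were joined, a distance chosen after these gaps were seen, the locus became 1 domain of 124261 bp in replicate 1 and of 124542 bp in replicate 2. On the low side of the window, replicate 2 had a narrow region of 1323 bp with a score of 0.32 at chr3R:9644033-9645355, and the whole series a different one of 1751 bp with a score of 0.26 at chr3R:9634231-9635981. Neither touched a region of the other lists.

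The window was covered to 64.6% in replicate 1 and 64.9% in replicate 2, a mean of 64.7% ± 0.163 (SD, n = 2). For the whole arm, which includes the window, the shares were 28.5% in replicate 1 and 40.3% in replicate 2. At ems and E5 the replicates thus differed by far less than over the arm. Of the bases covered in the window by either replicate, 97.7% were covered by both: 121558 bp were common, 1228 bp belonged to replicate 1 alone and 1666 bp to replicate 2 alone. Since the window was chosen for a stretch common to both, this agreement is part of its selection.

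Wide regions tend to carry high scores, and the regions over ems and E5 lay within that group rather than above it. As its scale is unknown, the score was read only as a rank within a list. The region of replicate 1 ranked 61 of 4865 by score, within the top 1.25%, and 25 among the 84 regions of at least 50 kb. The region of replicate 2 that holds both genes ranked 144 of 10330, within the top 1.39%, and 22 among 35 regions of at least 50 kb. By width they ranked 11 in replicate 1 and 1 in replicate 2. The small region after the gap ranked 1470 of 4865 in replicate 1 and 1402 of 10330 in replicate 2. The narrow region on the low side of replicate 2 ranked 9698, close to the end of its list.

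**Figure D2:**
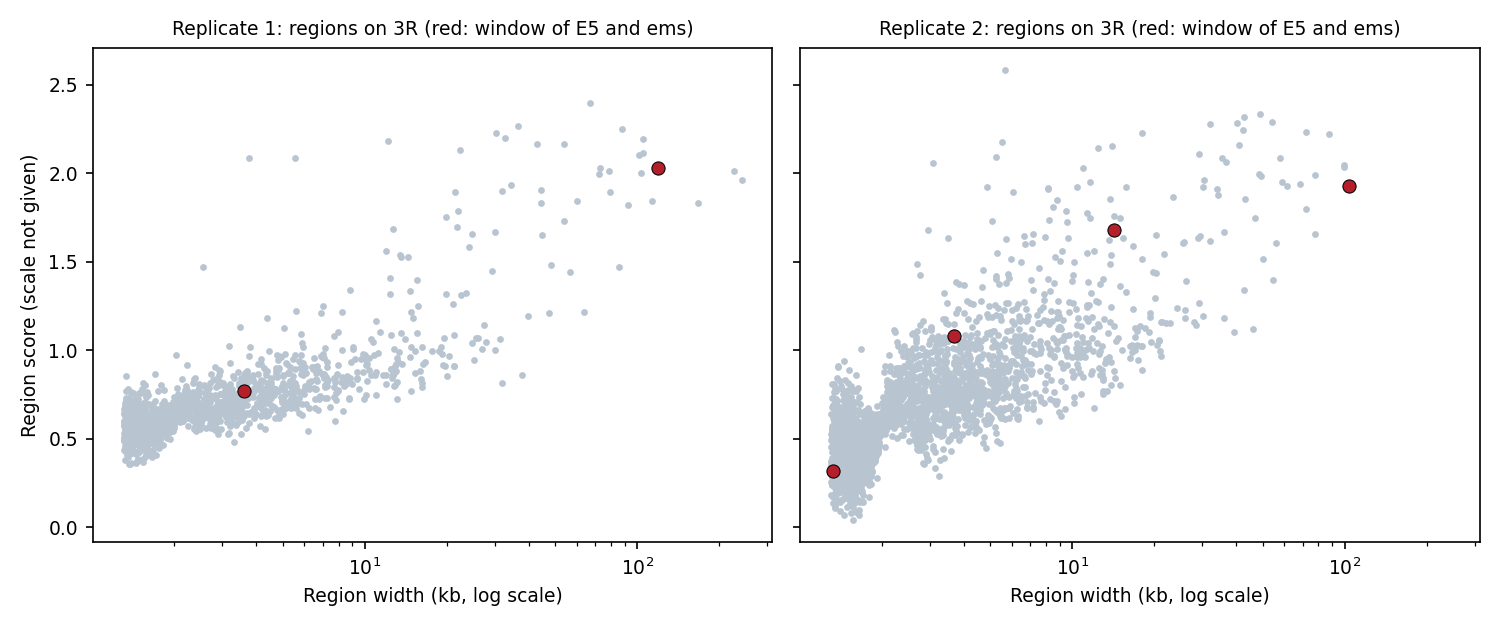
Score (y axis, scale not given) against width (x axis, kb, log scale) for every region on 3R in replicate 1 and replicate 2, with the regions of the window in red. The regions that hold E5 and ems, with scores of 2.03 and 1.93, sit among the other wide regions and not above them, and the narrow region of replicate 2 with a score of 0.32 sits in the dense cloud at the narrow end.

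Genes were placed on release 5 by subtracting 4174278 bp from their release 6 positions on 3R, a shift taken as constant along the arm. It was not checked locally at this locus, and each distance between a region edge and a gene below rests on it. E5 then spans 7572 bp at chr3R:9693067-9700638, and ems spans 2768 bp at chr3R:9727575-9730342. E5 began 12.1 kb inside the low end of the stretch common to both replicates and ended 84.3 kb before its high end. The gene ems lay 46.6 kb from the low end and 54.6 kb from the high end, so its midpoint was 4.00 kb from the centre of the stretch. In the joined domain ems lay closer still to the middle, 61.8 kb and 59.6 kb from the ends, with its midpoint 1.10 kb from the centre. Counted along the common stretch from its low end, the midpoint of E5 was at 15.3% of the length and that of ems at 46.2%.

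Much of the domain is sequence without annotated genes. The gap between ems and Art9, the next gene on the high side, is 37.6 kb and is the 10th longest of 2950 gaps between genes on the arm, where the median gap is 451 bp. The gap between E5 and ems is 26.9 kb and ranks 30. Both gaps were covered to 100% in both replicates. The 14.7 kb between CG31495 and CG14362, on the low side, were covered to 99.5% in replicate 1 and 97.1% in replicate 2. Gene bodies took up 16.5 kb of the common stretch, or 15.9%.

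The domain began next to the end of one gene and broke off inside another, and the replicates placed each of its edges within 229 bp of each other. The low edge lay 71 bp past the end of CG31495 in replicate 1, 19 bp past it in replicate 2 and 9 bp past it in the whole series. These edges of the replicates differed by 52 bp. The high edge of the wide region lay 400 bp inside Ipp in replicate 1 and 462 bp inside it in replicate 2, a difference of 62 bp. Ipp encodes inositol polyphosphate 1-phosphatase. Most of the gap that follows is Ipp itself, with 1285 of 1475 bp in replicate 1 and 1223 of 1561 bp in replicate 2.

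The small region after the gap matched the body of Kots in extent. In replicate 1 it began 47 bp before the low end of Kots and ended 91 bp after its high end. In replicate 2 it began 101 bp inside the gene and ended 320 bp after it. As background, the median distance from a region edge on 3R to the nearest gene end was 3183 bp in replicate 1 (2752 edges) and 2433 bp in replicate 2 (5150 edges). Among regions of at least 50 kb it was 284 bp in replicate 1 (44 edges) and 641 bp in replicate 2 (32 edges). Edges within 100 bp of a gene end made up 6.50% of all edges on 3R in replicate 1 and 7.34% in replicate 2, and 22.7% and 9.38% for regions of at least 50 kb. The low edge of the ems domain was within 100 bp in both replicates, and the high edge of the wide region, inside Ipp, in neither. The high edge of the Kots region, where the joined domain ends, was within 100 bp in replicate 1 but not in replicate 2. In both replicates the median distance was shorter for wide regions than for all regions together.

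**Figure D3:**
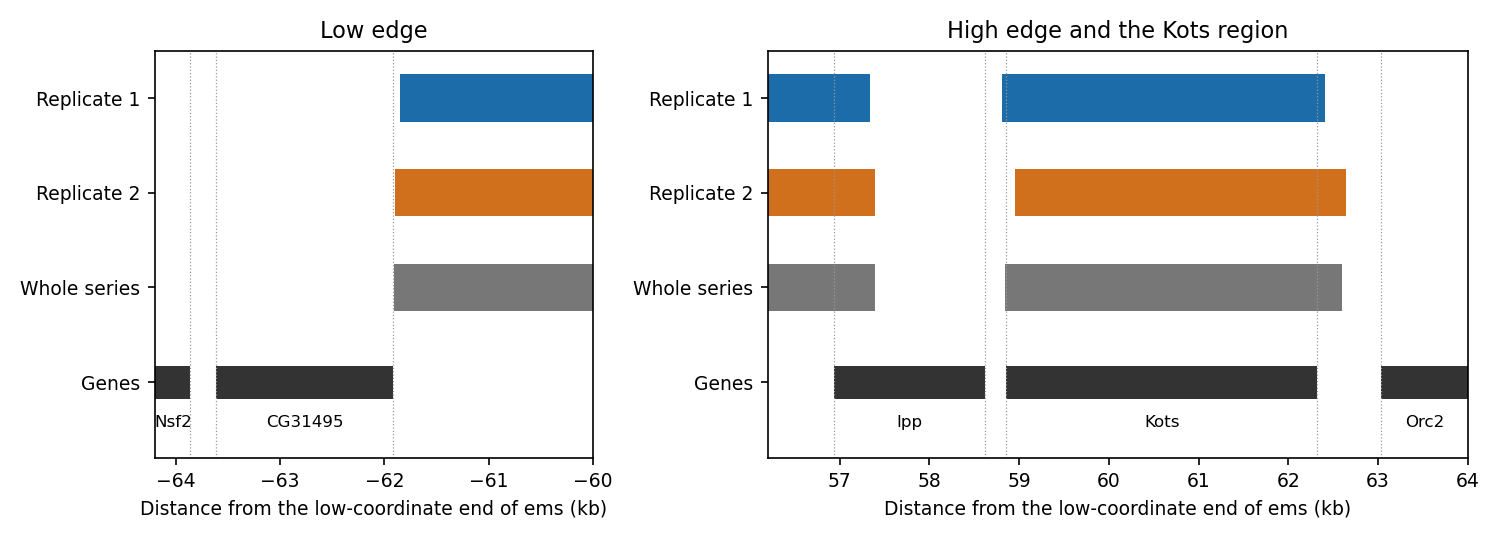
Close view of the low edge (left) and of the high edge with the Kots region (right) in the 3 lists, with gene bodies below and their ends as dotted lines; the x axis is the distance in kb from the low-coordinate end of ems. All 3 lists start within 71 bp of the end of CG31495, stop inside Ipp and resume at Kots.

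Agreement of the edges between the replicates was compared with that of other domains after joining at 2000 bp. On 3R, 37 joined domains of replicate 1 were at least 50 kb wide. For the domain of ems and E5 the nearest edges of replicate 2 lay 52 bp away at the low end and 229 bp at the high end. Over the 37 domains the medians were 632 bp at the low end and 803 bp at the high end. By the larger of both differences the domain ranked 4 of 37, with a range from 50 to 66617 bp. The joining distance was chosen after the gaps of this locus were seen, and it bridges all of them. Other domains with longer gaps may stay split in a replicate, so the rank is not an even comparison. These values describe the calls, and no test was run on a domain chosen for its overlap.

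The window touched 25 annotated genes at 22 distinct positions, since the 4 peptide genes of the tarsal-less locus share a single transcript. In both replicates 8 of the 25 were covered over at least 50% of the gene body. Of all genes placed on 3R the share was 16.5%. In replicate 1 alone it was 9 genes, beside 18.3% of the arm, and in replicate 2 alone 8 genes, beside 29.6%. The window was chosen on the same coverage, and nothing is read from the excess. Of the 25 genes, 7 were covered whole in both replicates and 15 had no covered base in either. Of the 4206 genes placed on 3R, 427 were covered whole in both replicates and 2429 had no covered base in either. Having no covered base is thus the state of most genes on the arm and no trait of the window.

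The 7 genes covered whole in both replicates were lncRNA:CR46239, E5, ems, Art9, Art6, CG31517 and CG9926. Art6 and Art9 belong to the protein arginine methyltransferase family and are no homeobox genes. They lie 13.4 kb and 15.7 kb from the high end of the common stretch. CG31517 and CG9926, which overlap, lie 9.45 kb and 8.05 kb from it. The non-coding gene lncRNA:CR46239 lies on the other side of E5, 9.32 kb from the low end.

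The remaining 3 genes that touched covered sequence were at its breaks. CG14362 was covered to 100% in replicate 1 and 20.8% in replicate 2, a mean of 60.4% ± 56.0 (SD, n = 2). The split in replicate 2 took out 678 of its 856 bp, while the whole-series list covered it whole. Ipp was covered to 23.8% in replicate 1 and 27.5% in replicate 2, a mean of 25.6% ± 2.60 (SD, n = 2). Kots was covered to 100% in replicate 1 and 97.1% in replicate 2, a mean of 98.5% ± 2.06 (SD, n = 2). The call for CG14362 was therefore the only one in the window that differed between the replicates at the 50% limit.

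**Figure D4:**
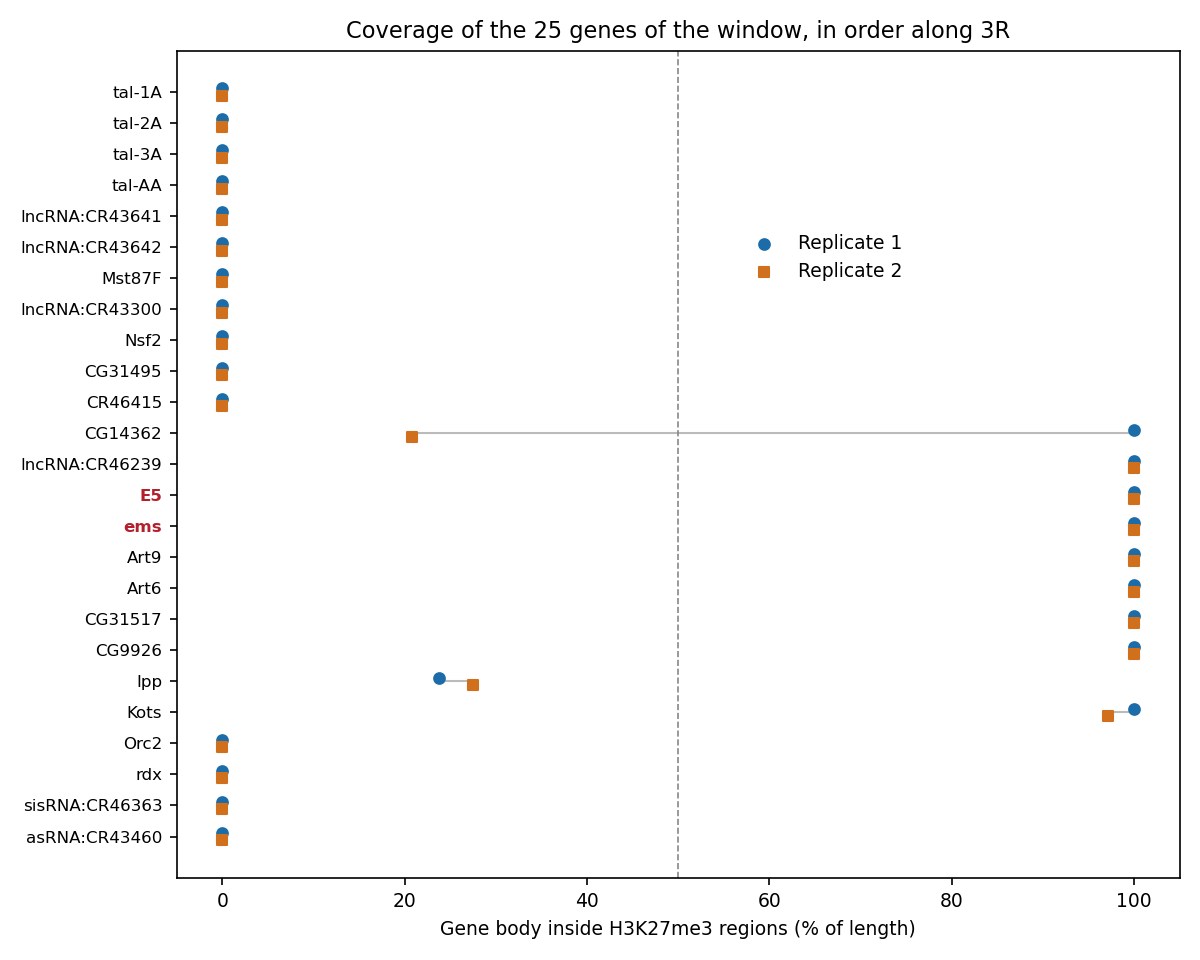
Share of each gene body inside H3K27me3 regions (x axis, percent of length) for the 25 genes of the window in order along 3R, with replicate 1 as circles and replicate 2 as squares; the dashed line marks 50%. E5, ems and 5 neighbours sit at 100% in both replicates, CG14362 is split at 100% and 20.8%, and the genes outside the domain sit at 0%.

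The 15 genes outside the domain were touched by no region of either replicate. On the low side CG31495 and Nsf2, an ATPase of vesicle fusion, had 0% in both replicates, as had Mst87F, a gene of the male germ line, and the tarsal-less genes. In replicate 1 the uncovered flank on this side ran for 122 kb and held 21 whole genes, 14 of them protein coding. In replicate 2 it ran for 20.3 kb to the narrow region with a score of 0.32. On the high side Orc2, a subunit of the origin recognition complex, began after 619 bp free of regions in replicate 1 and 390 bp in replicate 2, and had 0% in both replicates. The gene rdx (roadkill), an adaptor of a ubiquitin ligase in Hedgehog signalling, also had 0% over its 65.0 kb. The uncovered flank on this side was 71.7 kb in both replicates and held 6 whole genes. The region next to it, beyond the high end of the window, began at 9861679 in replicate 1 and at 9861953 in replicate 2. Beyond the low end of the window, the nearest region ended at 9543903 in replicate 1 and at 9616861 in replicate 2.

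E5 and ems were set beside the other homeobox genes of 3R, the family of DNA-binding regulators to which both belong. Of 31 listed genes, 30 were covered over at least 50% of the body in both replicates. Without ems and E5 it was 28 of 29 (96.6%), next to 16.5% of all genes on the arm and 13.8% of protein-coding ones. The exception, named after its value was seen, was NK7.1, with 7.83% in replicate 1 and 15.9% in replicate 2. The glial gene repo was the lowest of the others in replicate 1, with 55.2%, and had 93.6% in replicate 2. Coverage of the whole body in both replicates, as at ems and E5, was found at 15 of the other 29 genes. Over the arm it was found at 427 of 4206 genes, and at 244 of the 3387 protein-coding ones. The median coverage over the 31 genes was 100% in each replicate, and over all genes on the arm 0%. Many of the listed genes lie in clusters and share a joined domain of replicate 1. Examples are lab, pb, zen2, zen, bcd and Dfd in one, tin, bap, lbl and lbe in another, and abd-A with Abd-B. The 29 other genes are thus not as many separate loci, and the list was made with earlier results of these data known. The genes on 3R with a ribosomal protein symbol include paralogues of restricted use such as RpL10Aa and RpS5b. Of these 23 genes, 21 had no covered base in either replicate and none reached 50% in both. No covered base in either replicate was also found at 1982 of the 3387 protein-coding genes on the arm. RpL10Aa had 99.9% in replicate 1 and 0% in replicate 2.

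On 3R, 14 stretches of at least 50 kb were covered in both replicates, and their gene content was compared because it played no part in the choice of the window. The stretch of E5 and ems touched 8 protein-coding genes, or 7.70 per 100 kb. The arm as a whole had 12.1 per 100 kb. Among the 14 stretches the value ranked 4, with a median of 3.81 and a range from 1.28 to 13.8. Its share of sequence inside gene bodies, 15.9%, was lower than that of 11 other stretches, with a median of 57.2% over the 14 and 73.2% for the arm. Only the stretches named by hth (10.5%) and Dr (14.6%) had less. The former, at chr3R:6256077-6333972, holds only the low end of hth, which spans chr3R:6333283-6465290. The body of hth was covered to 99.8% in replicate 1 and 94.5% in replicate 2, mostly outside this stretch. The share of 10.5% thus describes sequence beside hth and depends on where the calls break. At Ubx, by contrast, gene bodies took up 92.2% of a stretch of 99.3 kb with 2 protein-coding genes. The stretch of E5 and ems thus touched more protein-coding genes per length than most of the 14, but had less genic sequence. The gaps on both sides of ems are long, while Art9, Art6, CG31517 and CG9926 lie close together. Its 8 genes include CG14362 and Ipp, which lie across its ends. Genes cut by an edge were counted in every stretch. Of the 14 stretches, 11 touched a listed homeobox gene. The 11 include the stretch of E5 and ems itself and separate stretches that both touch Antp. The stretch of pb lies in the same gene cluster as Antp, so the 11 are not as many separate loci. The stretch at chr3R:12682813-12744141, which touches no listed homeobox gene, lies between abd-A and Abd-B. How often narrower stretches touch a listed gene was not counted, and nothing is read from the number.

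**Figure D5:**
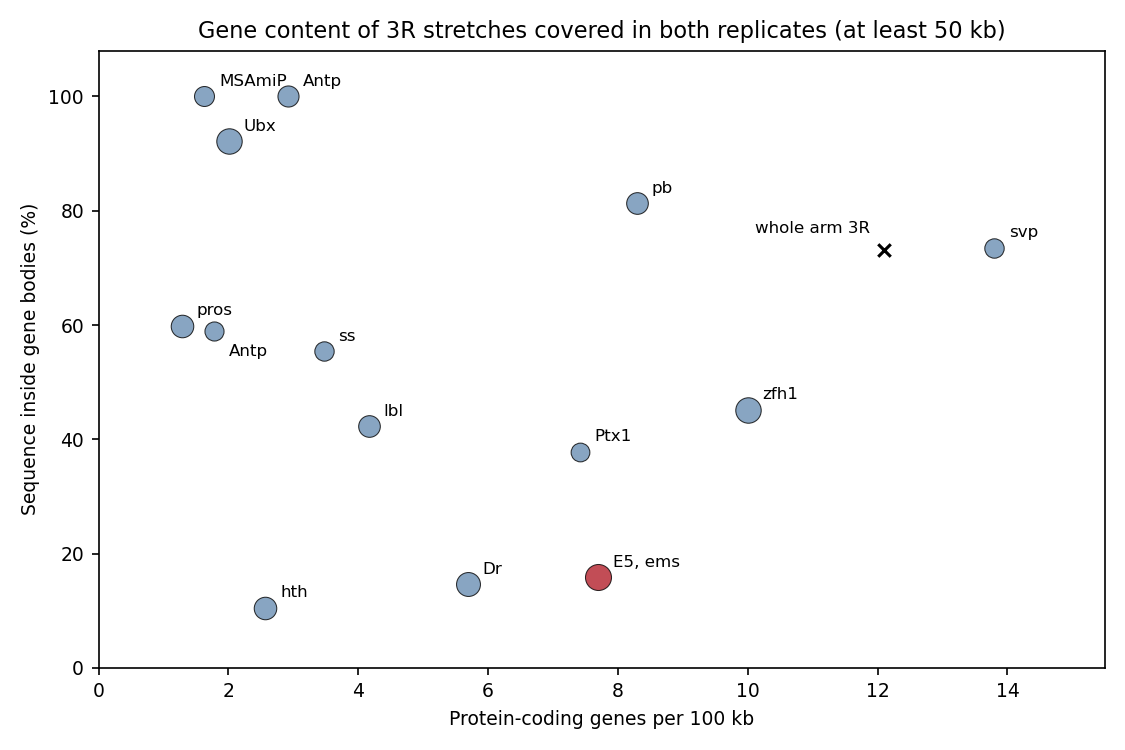
Share of sequence inside gene bodies (y axis, percent) against protein-coding genes per 100 kb (x axis) for the 14 stretches on 3R covered in both replicates over at least 50 kb, each named by a gene it touches; point area follows stretch width, and the cross marks the whole arm. The stretch of E5 and ems, at 7.70 genes per 100 kb and 15.9% genic sequence, lies at the bottom with those named hth and Dr. The stretch named hth holds only the low end of that gene.

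The genes most like ems and E5 were taken as those that lie whole within a stretch common to both replicates of the most similar width, with the longest such gene named per stretch. Measured over 2 replicates, these were the serpin gene Spn100A in a stretch of 99.5 kb and CG31275 in one of 99.3 kb. They were followed by Dr, a homeobox gene of muscle and nervous system patterning, in a stretch of 87.9 kb, Cyp12e1, a cytochrome P450 gene, in one of 77.9 kb and the Hox gene pb in one of 72.2 kb. The stretch of Spn100A also touches zfh1, that of CG31275 touches Ubx and that of Cyp12e1 touches hth.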

How the data were processed

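The submitters' processing notes name Bowtie 0.12.7, and regions are on FlyBase release 5, per the file headers. No label or file header used here names the region caller or its threshold. The values used are the start and end of each region and the score that the authors deposited with it, on an unknown scale. The 1 region marked as depleted was left out. From these lists, overlaps were computed in base pairs with Python 3.11.15 and NumPy 2.4.6, and the code was tested on simulated regions. Of 4226 genes on 3R in a RefSeq gene table of release 6, 4206 could be placed, and 20 lie before the start of the release 5 arm. The placed arm would end at 32079331 in release 6, and the last gene of the table ends at 32068441. The table gives no strand, so gene starts were not used. The locus and the gene lists were chosen with earlier results of these data known. Named genes were ems and E5, window genes that touch a stretch common to both replicates or lie within 10 kb of the ems stretch, list genes that pass 50% in one replicate only, and the 5 most alike genes; other neighbours were named to describe the flanks. Shares are means of 2 replicates with the SD, and no test was run because the window was chosen on the same calls. Alternatives were stricter score, width and coverage limits, joined regions, a wider window and each replicate alone.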

Additional observations from a re-analysis of the deposited data

How the results depend on the processing

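The mean covered share of the window, 64.7%, was 64.6% to 64.9% with each replicate alone and 64.7% when regions under 1000 bp apart were joined. It was 64.4% after leaving out regions below the median score of their list, 62.5% with regions of at least 5000 bp, 65.8% with regions under 2000 bp apart joined and 47.0% with the window widened by 50 kb on each side, where the flanks without regions enter by construction. The stretch common to both replicates kept its length of 103913 bp under the planned limits on score and width and under joining at 1000 bp. Joining at 2000 bp, chosen after the data were seen, bridged its gaps and gave 124261 bp. The 8 genes covered in both replicates numbered 7 to 10 under the alternatives run, 8 to 9 with each replicate alone. At a limit of 90% of the gene body, 28 homeobox genes were covered in both replicates and none of the photoreceptor and neuron or ribosomal protein genes. With stretches of at least 30 kb the median was 4.27 protein-coding genes per 100 kb over 33 stretches. Coverage around gene starts and the sequences of promoters and proteins were not analysed here. No paired analysis was possible because called regions exist for the ChIP samples alone and no test was run. Depth is unknown, which limits any reading of bases outside regions.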
